A study of Mus musculus with 4 samples.

Results

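Cluster 31, which the deposited annotation names *Cdh3*/*Nkain3*, held 204 of the 12539 neuronal nuclei in a dissected piece of mouse hindbrain that contains the area postrema and the nucleus of the solitary tract. Its members were taken as the nuclei that the authors kept and placed in this cluster, out of 39461 kept nuclei of all types, and they were set against the 12335 other nuclei annotated as neurons. In all 4 libraries the cluster carried the genes for making and packaging GABA together with *Slc6a5*, the glycine transporter of glycinergic terminals, and it carried little *Slc17a6*, the vesicular glutamate transporter of many hindbrain excitatory neurons. The markers therefore describe a GABAergic and glycinergic profile rather than GABA markers alone.

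Inhibitory neurons make GABA from glutamate with glutamate decarboxylase, encoded by *Gad1* and *Gad2*, and load it into vesicles with the transporter encoded by *Slc32a1*, which also carries glycine. Terminals that release glycine take it up from outside with the transporter encoded by *Slc6a5*, and many inhibitory neurons of the hindbrain and spinal cord use both transmitters. *Cdh3* encodes P-cadherin, a calcium-dependent adhesion molecule, and *Nkain3* encodes a small membrane protein of a family that binds the beta subunit of the sodium pump.

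The study asked how opposite chemogenetic control of 2 hypothalamic neuron types acts on downstream brain areas. Nuclei came from AgRP-Gq;POMC-Gi mice and from control mice. The former carried AgRP-IRES-Cre+/- with hM3DGqfl/-, an activating designer receptor, and POMC-Dre+/- with hM4DGifl/-, an inhibiting one. The controls are called wild type in the labels, but by the methods they carried both receptor alleles (hM3DGqfl/- and hM4DGifl/-) and neither recombinase (AgRP-IRES-Cre-/- and POMC-Dre-/-). Both groups were adult mice of 12 to 20 weeks, of both sexes, and both received the receptor ligand CNO (clozapine-N-oxide) at 3 mg per kg 1 h before death with no food, so CNO itself is shared by all 4 libraries. Cre switches the activating receptor on in AgRP neurons and Dre the inhibiting one in POMC neurons. The study was aimed at those of the hypothalamus, whereas the nuclei described here come from the hindbrain. Whether any of the dissected hindbrain cells carried a receptor was not tested. Mice of a condition were pooled (2 mice per group are stated), and 2 libraries were made per group. No source used here ties a library to particular mice, so p-values measure the spread between libraries, which may be technical. The 2 libraries of AgRP-Gq;POMC-Gi mice differed in *Xist*, however, as given below.

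The 4 libraries gave 41, 47, 40 and 76 nuclei of cluster 31, with the control libraries given before those of AgRP-Gq;POMC-Gi mice and replicate 1 before replicate 2 in each group, an order kept throughout. Their UMIs (unique molecular identifiers, 1 per captured RNA molecule) summed to between 432563 and 946127 per library, and the median nucleus held 10885 UMIs and 4142 genes, against 8652 UMIs in the other neurons and 2460 in oligodendrocytes. Levels are UMIs of a gene per 1000000 UMIs of all genes summed over the same nuclei of a library (CPM), and mean ± SD is over the 4 libraries. No nucleus of cluster 31 carried a barcode sequence that was also that of a kept nucleus of another library (0 of 204, against 168 of 39293 distinct barcodes of kept nuclei found in more than 1 library). AgRP-Gq;POMC-Gi replicate 2 stood apart from the other 3 libraries in *Xist*, a transcript of the inactive X chromosome of females. Its cluster 31 nuclei held 0 CPM, where the others held 521, 333 and 469 CPM. In the other neurons *Xist* was at 506, 318, 542 and 16.7 CPM. The AgRP-Gq;POMC-Gi libraries thus differed in the sex of their nuclei, and the groups were not balanced for sex. The part of sex in the differences between groups was not tested. Of the markers of other cell types, summed oligodendrocyte genes were at 279, 168, 90.2 and 182 CPM in cluster 31, close to the 277, 234, 136 and 172 CPM of the other neurons. *Ttr*, a gene of the choroid plexus, was at 0, 739, 2.31 and 450 CPM, a split by replicate number that the other neurons also showed, with values from 1.52 to 1008 CPM.

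*Cdh3* stood at 48.9, 58.6, 116 and 78.2 CPM in cluster 31 (mean 75.3 ± 29.5, n = 4) and at 2.20 ± 0.70 CPM in the other neurons, a ratio of 34.3. All 4 sums of the cluster lay above those of the other neurons, and *Cdh3* had the highest ratio of the genes seen in at least 25% of the cluster's nuclei. A *Cdh3* UMI was found in 43.6% of the cluster's nuclei, in 1.61% of the other neurons and in 0.0714% of oligodendrocytes, which should lack it. *Nkain3* stood at 1563, 1575, 1741 and 1598 CPM (mean 1619 ± 82.4), against 373 ± 11.3 CPM in the other neurons, a ratio of 4.34. Unlike *Cdh3*, it was detected in nearly every nucleus of the cluster (96.1%) and also in most other neurons (57.4%), and in 0.934% of oligodendrocytes. Both genes together were seen in 86 nuclei (42.2%), and 5 nuclei (2.45%) had a UMI of neither. These shares depend on depth. With every nucleus thinned to 2000 UMIs, which left out 2 of the cluster's nuclei, 164 other neurons and 5416 oligodendrocytes, *Cdh3* was found in 12.4% of the cluster against 0.444% of the other neurons, and *Nkain3* in 86.1% against 36.3%. *Cdh3* (ENSMUSG00000061048) lies on chromosome 8 at 106510891 to 106557297 and *Nkain3* (ENSMUSG00000055761) on chromosome 4 at 20118874 to 20778866 of GRCm38, and both are protein coding.

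Neither gene marks this cluster alone. Among 134 neuronal clusters with at least 15 nuclei, cluster 31 came second for *Cdh3*, behind cluster 146 (*Rxfp1*/*Ebf2*) with 78.0 CPM and ahead of cluster 180 (*Cpa6*/*Cngb3*) with 60.6 CPM, and the first 2 differed by less than the SD of cluster 31 over libraries. The median cluster held 0 CPM of *Cdh3*. For *Nkain3*, cluster 180 held 1873 CPM and cluster 108 (*Sema3a*/*Il1rapl2*) held 1560 CPM, on either side of cluster 31, and the median cluster held 291 CPM. The plot of both genes by cluster shows cluster 31 in the upper right corner, with only cluster 180 near it.

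**Figure D1:**
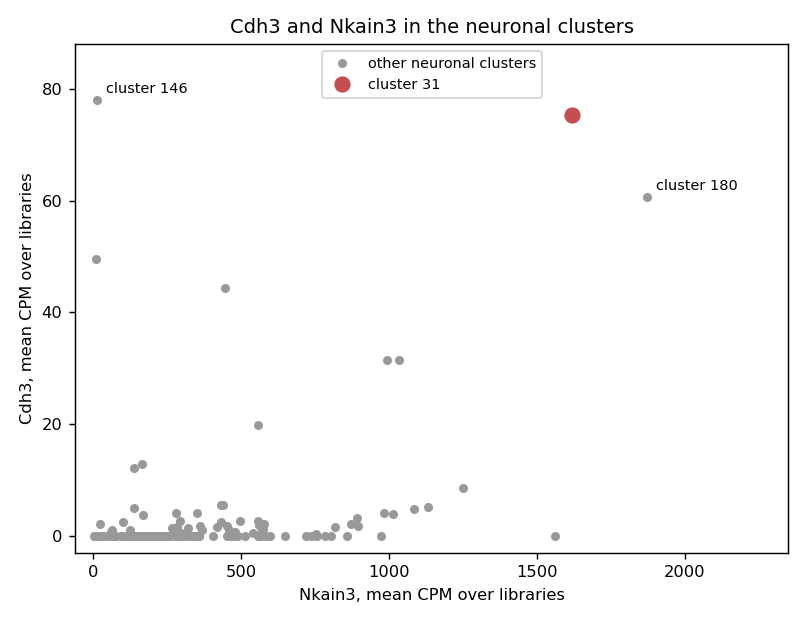
Mean level of *Cdh3* (vertical axis, CPM) against that of *Nkain3* (horizontal axis, CPM) in 134 neuronal clusters, each point 1 cluster and cluster 31 in red. Cluster 31 lies at 1619 CPM of *Nkain3* and 75.3 CPM of *Cdh3*, and clusters 146 and 180, the nearest for *Cdh3*, are named.

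Of the GABA genes, 4 of 7 were higher in cluster 31 and none was lower, where higher means a mean CPM at least 2-fold that of the other neurons with all 4 sums above theirs. This rule called 318 of 12802 genes higher (2.48%) and 671 lower (5.24%) among those seen in at least 5% of the nuclei of either population, and since clusters are built from expression these counts are a description and not a test. *Gad1* (chromosome 2, 70553072 to 70602014) stood at 143, 202, 194 and 219 CPM in the cluster, with a mean of 190 ± 32.7 against 47.8 ± 2.61 CPM elsewhere (ratio 3.97). The 4 cluster sums lay far above those of the other neurons, with control replicate 1 the lowest. *Gad2* stood at 159, 199, 169 and 185 CPM (178 ± 17.3 against 93.7 CPM), a ratio of 1.90 that fell short of the rule. *Slc32a1* (chromosome 2, 158610767 to 158615748) stood at 59.8, 83.2, 62.4 and 60.3 CPM (66.4 ± 11.3 against 26.4 CPM, ratio 2.52). *Abat*, which encodes the enzyme that breaks GABA down, met the rule with a ratio of 2.32 (305 ± 28.9 CPM). *Gad1os* overlaps *Gad1*, and the strand setting of the counting is not given in the sources used here.

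Among the glycine genes the difference was limited to the presynaptic transporter (1 of 7 higher, none lower, median log2 ratio −0.12 beside 0.02 over all 12802 genes). *Slc6a5* (chromosome 7, 49910146 to 49963856) stood at 237, 234, 240 and 219 CPM in cluster 31, a mean of 233 ± 9.60 against 80.2 ± 6.68 CPM in the other neurons (ratio 2.90). Its 4 values were nearly equal. Genes for glycine receptors and their anchor did not meet the rule, with ratios of 1.02 for *Glra1*, 0.922 for *Glrb*, 0.543 for *Glra2*, 0.538 for *Glra3* and 0.965 for *Gphn*, which encodes gephyrin. *Slc17a6* stood at 12.7, 5.67, 2.31 and 2.11 CPM, a mean of 5.69 ± 4.93 against 77.4 CPM in the other neurons, and no UMI of *Slc17a8* was found in 204 nuclei, which allows a share of up to 1.47% of nuclei with a UMI and sets no limit on nuclei that express the gene. Of 134 clusters, cluster 31 came 5th for *Slc6a5*, 6th for *Gad1*, 8th for *Slc32a1*, 36th for *Gad2* and 108th for *Slc17a6*, so other clusters shared or exceeded each of its transmitter genes.

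The 2 transmitter systems met in the same nuclei. A UMI of *Gad1* or *Gad2* was found in 191 of 204 nuclei (93.6%), and 164 nuclei (80.4%) had both a *Gad* UMI and a *Slc6a5* UMI. In the other neurons 3116 of 12335 nuclei (25.3%) had both, or 55.8% of the 5584 with a *Gad* UMI. *Slc6a5* alone was seen in 85.8% of the cluster, in 31.8% of the other neurons and in 1.39% of oligodendrocytes, and *Gad1* in 82.4%, 26.0% and 1.86%. At 2000 UMIs per nucleus *Slc6a5* was found in 35.1% against 12.5% and *Gad1* in 28.2% against 8.98%, among 202 nuclei of the cluster and 12171 other neurons. A *Slc17a6* UMI was found in 5.88% of the cluster, 36.2% of the other neurons and 3.49% of oligodendrocytes. Of the 12 nuclei of the cluster with one, 10 also had a *Gad* UMI. Of 6 genes common to neurons 0 met the rule in either direction, with ratios from 0.606 for *Elavl4* to 1.40 for *Syt1*.

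**Figure D2:**
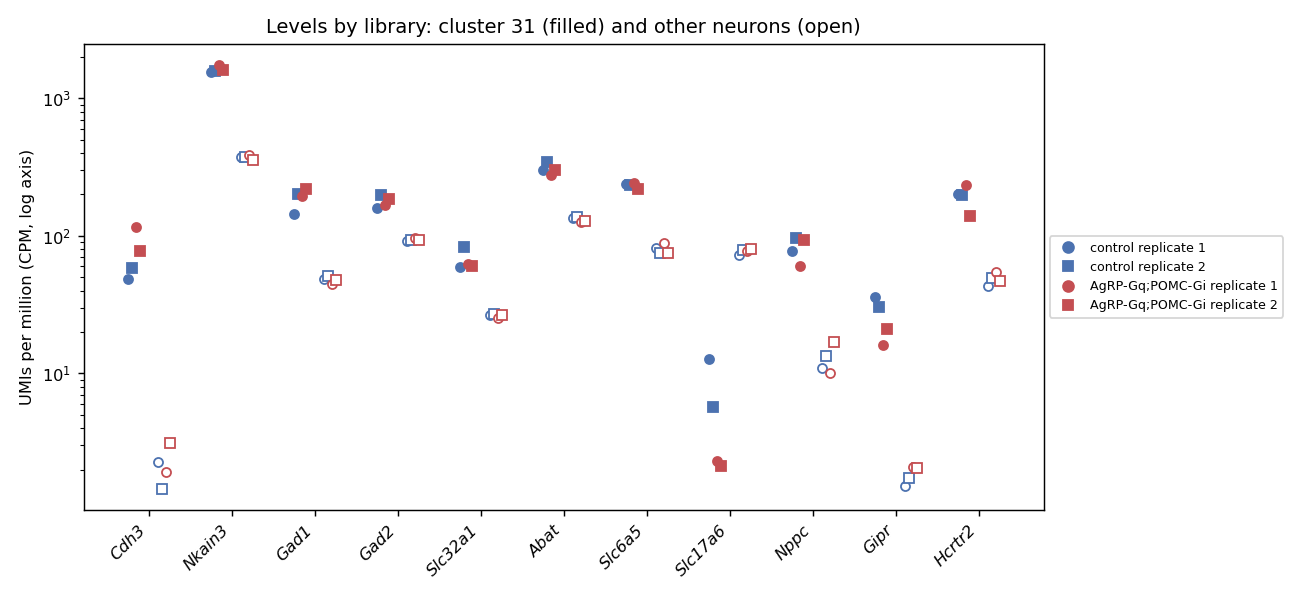
Levels (CPM, log axis) of 11 genes by library, filled points for cluster 31 and open points for the other neurons, in blue for control and red for AgRP-Gq;POMC-Gi, circles for replicate 1 and squares for replicate 2. Filled points lie above open ones for *Cdh3*, *Nkain3*, *Gad1*, *Slc32a1*, *Slc6a5*, *Nppc*, *Gipr* and *Hcrtr2* and below them for *Slc17a6*.

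Of the 20 genes with the highest ratios, *Gpc5* and *Gpc4* encode glypicans, heparan sulphate proteoglycans of the cell surface. *Gpc5* stood at 5380, 4917, 6131 and 5978 CPM in cluster 31 (5602 ± 560) and at 840 ± 74.0 CPM elsewhere (ratio 6.67). It was found in 94.6% of the cluster's nuclei and 49.2% of the other neurons, and in 89.6% against 35.7% after thinning. *Gpc4* stood at 45.3, 49.2, 43.9 and 32.8 CPM (42.8 ± 7.03 against 2.22 CPM, ratio 19.3), the highest mean of all 134 clusters. The transcripts *Gm20713* (1444 ± 170 CPM, ratio 7.12) and *4930505G20Rik* (65.4 CPM, ratio 7.06) lie within *Gpc5* on the opposite strand, with overlaps of 83135 and 13002 bases, and without a stated strand setting their reads cannot be told apart from those of *Gpc5*. *Gpc5* (ENSMUSG00000022112) spans 115092215 to 116525179 on chromosome 14.

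The same 20 genes held receptors and secreted signals. *Kit*, the receptor tyrosine kinase for stem cell factor, stood at 97.8, 174, 169 and 128 CPM (142 ± 36.0, ratio 7.50) and was seen in 64.2% of the cluster against 11.3% of the other neurons. *Ndnf*, a secreted neurotrophic protein, stood at 94.2, 159, 139 and 144 CPM (134 ± 27.8, ratio 7.47). *Nppc*, which encodes C-type natriuretic peptide, stood at 77.9, 96.4, 60.1 and 94.1 CPM (82.1 ± 16.8 against 12.9 CPM, ratio 6.39) and was seen in 53.4% against 9.89% of nuclei. In each of these genes the lowest library of the cluster was still above every sum of the other neurons. That library was control replicate 1 for *Kit* and *Ndnf* and AgRP-Gq;POMC-Gi replicate 1 for *Nppc*. *Otof*, which encodes the vesicle-fusion protein otoferlin, had a ratio of 7.20 (106 ± 36.6 CPM), *Rab38*, a small GTPase of organelle transport, 8.58 (47.9 ± 13.8 CPM), and *Rasgrp1*, an activator of Ras, 7.71 (39.3 CPM). *Colec12*, a scavenger receptor, had a ratio of 9.06 (91.6 ± 9.86 CPM) and *Itga4*, an integrin subunit, 5.63 (86.4 CPM). *Prkcq*, a protein kinase C, had a ratio of 9.53 (84.8 ± 13.3 CPM), but it does not set the cluster apart from all other nuclei. The neuronal cluster 74 (*Rbm20*/*Nox4*) held 84.0 CPM of it and oligodendrocytes 134 CPM. After thinning it was found in 15.3% of the cluster, 1.73% of the other neurons and 22.0% of oligodendrocytes. The other members of the 20 were *Fam20a*, a pseudokinase of secreted proteins (90.5 ± 19.3 against 9.01 CPM), the noncoding *Gm27239* and *4930488N15Rik* (ratios 9.05 and 7.59) and 3 transcription factors described next. All 20 kept a higher share of nuclei than the other neurons after thinning.

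**Figure D3:**
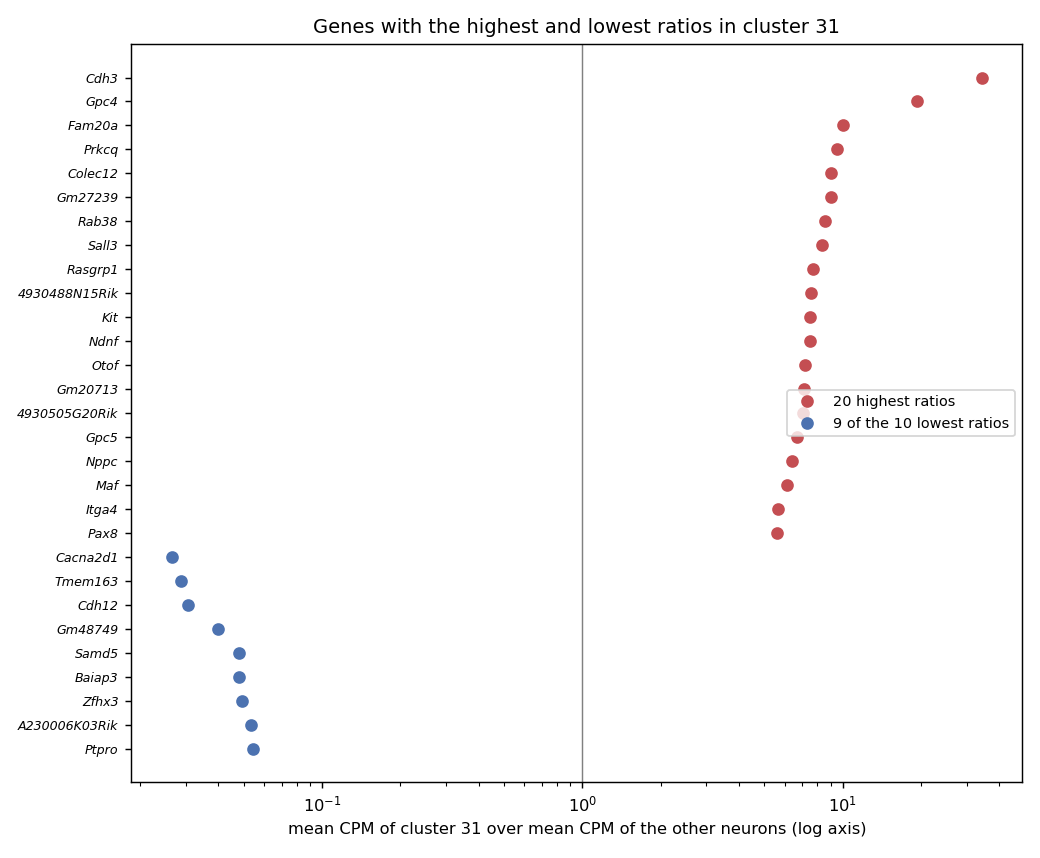
Ratio of the mean CPM of cluster 31 to that of the other neurons (log axis) for the 20 genes with the highest ratios and for 9 of the 10 with the lowest, under the detection minimum of 25% of nuclei. *Cdh3* is highest at 34.3 and *Cacna2d1* lowest at 0.0265, and the grey line marks equal levels.

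Transcription factors differed in both directions. Of 90 listed factors, 46 were seen in enough nuclei to describe, of which 15 were higher and 12 lower, and 21 had no UMI in the cluster. *Pax2*, a factor of dorsal inhibitory interneurons of hindbrain and spinal cord, stood at 275, 231, 201 and 170 CPM (219 ± 44.7 against 57.2 ± 3.18 CPM). Its close relative *Pax8* stood at 107, 125, 134 and 140 CPM (126 ± 14.3 against 22.5 CPM), and a UMI of at least 1 of the pair was found in 184 of 204 nuclei. Both were above the other neurons in all 4 libraries. *Lbx1*, *Lhx5* and *Gbx1* were higher at low levels, with ratios of 3.34, 2.30 and 3.70, whereas *Lhx1*, *Tfap2a* and *Tfap2b* were lower. *Nfib* stood at 415, 420, 437 and 420 CPM (423 ± 9.76, ratio 4.27) but was also seen in 44.5% of oligodendrocytes. *Maf* (239 ± 39.5 CPM, ratio 6.12) and *Sall3* (75.9 ± 13.2 CPM, ratio 8.31), which belong to the 20 highest ratios along with *Pax8*, were seen in 66.7% and 51.5% of the nuclei. *Ebf3*, *Bcl11b*, *Tshz1*, *Tshz3*, *Skor1*, *Neurod2* and *Neurod6* completed the 15, with ratios from 2.08 to 5.68.

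Of the 12 factors that were lower, the zinc finger homeobox factor *Zfhx3* stood at 12.7, 56.7, 0 and 28.5 CPM (24.5 ± 24.5 against 495 ± 19.2 CPM), and *Meis1*, a Hox cofactor, at 19.9, 7.56, 30.1 and 25.4 CPM (20.7 ± 9.70 against 208 ± 26.8 CPM). Their cluster sums varied several-fold among libraries yet stayed below those of the other neurons. *Foxp2* (ratio 0.0158), *Tfap2b* (0.0558), *Lmx1b* (0.0439) and *Bnc2* (0.0685) had ratios of the same order as *Zfhx3* and *Meis1* or lower, and *Lhx1*, *Tfap2a*, *Zfhx4*, *Satb1* and *Rorb* had ratios from 0.211 to 0.489. Of the Hox genes, which record the position of a neuron along the body axis, 14 of 30 could be described and only *Hoxb8* met the rule (10.4 against 1.90 CPM, ratio 5.45), while *Hoxb3* (74.9 CPM) had a ratio of 1.53. Their median log2 ratio was 0.55 beside 0.02 over all genes described.

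Among adhesion genes *Cdh3* was the exception in its own family. Of 20 classical cadherins 15 could be described, of which *Cdh3* was higher, 6 were lower and the median log2 ratio was −0.86. *Cdh12* stood at 29.0, 15.1, 9.25 and 8.46 CPM against 505 ± 46.0 CPM in the other neurons, and only 2 of the 134 clusters held less. *Cdh18* (831 ± 187 CPM, ratio 0.428), *Cdh6* (0.273), *Cdh11* (0.241) and *Cdh22* were lower too, and *Cdh2*, the N-cadherin of most neurons, did not meet the rule (221 ± 21.3 against 281 ± 13.7 CPM). Of the cytoplasmic partners of cadherins, the catenins, only *Ctnna3* met it (490 ± 106 CPM, ratio 0.449). The NKAIN family had 2 of 4 members higher, *Nkain3* and, at a low level, *Nkain4* (12.0 ± 2.75 against 5.73 CPM), while *Nkain2* was nearly equal (2227 ± 84.3 against 1969 ± 96.7 CPM). The sodium pump subunits that NKAIN proteins associate with showed little difference (0 of 6 higher, 1 lower), with a ratio of 1.34 for *Atp1b3*.

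Peptides and their receptors were mostly at or below the level of other neurons. Of 34 neuropeptide genes 11 could be described, and *Nppc* was the only one higher, whereas 7 were lower. The lower ones included *Penk*, the precursor of enkephalins (2.89 ± 2.42 against 43.7 ± 8.17 CPM), *Sst*, which encodes somatostatin (10.8 ± 3.70 against 30.6 ± 5.09 CPM), and *Tac1*, which encodes substance P (3.83 against 18.2 CPM). Of 54 peptide receptor genes 23 could be described, 4 higher and 6 lower. *Hcrtr2*, an orexin receptor, stood at 201, 197, 236 and 140 CPM (193 ± 39.9 against 48.7 ± 4.76 CPM, ratio 3.97), and *Ret*, a receptor for neurotrophic factors, had a ratio of 4.00 (40.5 ± 4.70 CPM). *Gipr*, the receptor for glucose-dependent insulinotropic peptide, stood at 36.2, 30.3, 16.2 and 21.1 CPM (25.9 ± 8.99 against 1.85 CPM, ratio 14.1). Both control libraries held more *Gipr* than the other 2, a difference that did not pass the test (log2 difference −0.74, adjusted p = 0.994). *Gipr* was found in 21.1% of the cluster's nuclei and in 1.52% of the other neurons, but oligodendrocytes also held 18.0 ± 3.03 CPM, and after thinning the shares were 4.46%, 0.509% and 3.21%. *Ntsr1*, a neurotensin receptor, completed the 4 (12.2 CPM, ratio 4.50). *Lepr*, the leptin receptor, stood at 5.57 ± 1.11 against 18.0 ± 1.99 CPM and *Npy1r*, an NPY receptor, at 2.14 ± 1.90 against 7.63 CPM. *Mc4r* (1.42 ± 2.19 CPM) and *Glp1r* (1.45 ± 0.978 CPM) were seen in 2% of nuclei or fewer, too few for the rule to apply, and *Insr* had a ratio of 0.871.

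Receptors for fast transmitters and ion channels gave a mixed profile. No GABA receptor gene was higher and 5 of 13 were lower, among them the subunit gene *Gabrb2* (25.4 ± 16.0 against 157 CPM). Of 23 glutamate receptor genes 3 were higher and 5 lower. *Grik1*, a kainate receptor subunit, stood at 1396 ± 207 against 339 ± 22.0 CPM, and the metabotropic *Grm5* at 2754 ± 304 against 1289 ± 76.3 CPM. *Grm3* was higher than in the other neurons (712 ± 99.6 CPM, ratio 3.12), but 89.5% of oligodendrocytes also had a UMI of it. The auxiliary subunits of calcium channels differed in both directions. *Cacna2d3* stood at 2024 ± 216 against 497 ± 22.6 CPM, the highest mean of the 134 clusters, and *Cacna2d1* at 5.43, 15.1, 16.2 and 18.0 CPM against 516 ± 28.2 CPM, the lowest ratio among genes seen in at least 25% of the other neurons. Of 32 potassium channel genes none was higher and 6 were lower, with *Kcnn3* at a ratio of 0.0673 and *Kcnip4*, a channel-interacting protein, at 0.208.

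Of 10 calcium-binding proteins, which are used to class inhibitory neurons, 3 were higher and 3 lower. *Pvalb*, which encodes parvalbumin, stood at 68.8, 47.3, 32.4 and 79.3 CPM (56.9 ± 21.1 against 20.3 ± 3.57 CPM) and was seen in 42.6% of nuclei against 14.2% of the other neurons. *Calb1*, which encodes calbindin, stood at 3.62, 1.89, 0 and 2.11 CPM against 25.3 ± 6.94 CPM, and *Calb2*, calretinin, had a ratio of 0.204. Of 17 receptors for serotonin and other amines or acetylcholine that could be described, *Htr5a* was higher at a low level (6.02 ± 1.37 CPM) and 6 were lower, including the serotonin receptor *Htr2c* (138 against 747 CPM), which returns in the comparison of the groups.

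The clusters most like cluster 31 by overall expression were sought next. Over 17109 genes, the Pearson correlation of log2(CPM + 1) with cluster 31 was highest for clusters 39 (*Col19a1*/*Sv2b*, r = 0.949), 33 (*Il1rapl2*/*Slc6a5*, r = 0.947) and 74 (*Rbm20*/*Nox4*, r = 0.947), against a median of 0.902 over 133 clusters. All clusters share the same 4 libraries and a large set of neuronal genes, so these values rank clusters and carry no p. The order depended on the genes used, since with genes of at least 50 CPM clusters 74, 39 and 87 (*Col25a1*/*Nox4*) came first (r from 0.924 to 0.930) and cluster 33 came 6th (r = 0.923). Clusters 39, 33 and 74 held *Slc6a5* (198, 221 and 268 CPM) and less *Gad1* (19.8, 41.7 and 69.2 CPM) than cluster 31. Of the 20 highest ratios, *Prkcq* (84.0 CPM) and *Gm27239* (34.2 CPM) were nearly equal in cluster 74. The rest of the 20 were lower there than in cluster 31. Of these, *Sall3* (46.1 CPM), *Nppc* (42.0 CPM), *Maf* (105 CPM), *Pax8* (41.1 CPM), *Itga4* (24.8 CPM), *Rab38*, *4930488N15Rik* and *4930505G20Rik* stood above the mean of the other neurons. *Pax8* did so in clusters 39 (45.4 CPM) and 33 (61.3 CPM) too, as did *4930488N15Rik* in cluster 39. In cluster 33 *Gpc5* (1141 CPM), *Gm20713* and *4930505G20Rik* did as well. *Cacna2d1* was also far below the 516 CPM of the other neurons in clusters 33 (19.1 CPM) and 74 (27.7 CPM), and less so in cluster 39 (133 CPM). Cluster 31 differed from cluster 39 most by *Kit* (142 against 1.85 CPM), *Rab38*, *Prkcq*, *Gpc4* and *4930447N08Rik* on the higher side. *Foxp2* (1.16 against 143 CPM), *Cdh12* (15.4 against 619 CPM), *Gm48749*, *Samd5* and *Gm36560* were the genes on the lower side. Against cluster 33 the higher genes were *Rab38*, the factor *Ebf2* (126 against 1.65 CPM), *Sall3*, *Otof* and *Cdh3* itself (75.3 against 1.01 CPM), and the lower ones *Gm12688*, *Gm48749*, *Cdh12* (640 CPM in cluster 33), *Samd5* and *Gm48727*. Against cluster 74 *Ndnf* (134 against 0 CPM), *Ebf2*, *C230057M02Rik*, *Otof* and *Cpa6* (135 against 0.866 CPM) were higher, and *Mboat1*, *Pde11a*, *Calb1* (1.91 against 83.4 CPM), *Sntb1* and *Vmn1r207-ps* were lower. *Cdh12* was lower in cluster 31 than in each of these 3 clusters, with 170 CPM in cluster 74, where it was not among the genes named. *Ebf2* was among the genes named against clusters 33 and 74.

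To describe variation within the cluster, for each gene the variance of UMIs over nuclei was divided by the Poisson variance at each nucleus's depth, within libraries, and the median of this ratio was 1.12 over 8652 genes. The ratio can rise with a gene's level, so it does not rank genes of unequal level. The 10 largest ratios were those of the nuclear RNA *Malat1* (152), *Lrrc4c* (107), *Kcnip4* (78.6), *Cdh18* (44.7), *Sgcz* (42.2), *Galntl6* (38.3), *Dpp10* (36.9), *Gpc5* (36.5), *Il1rapl2* (36.0) and *Schip1* (32.8). For *Il1rapl2*, which belongs to a family of synaptic adhesion proteins, 7 nuclei held at least 50% of its 730 UMIs, spread over all 4 libraries. For *Kcnip4* the number was 8 nuclei. *Nkain3* had a ratio of 8.98 and needed 46 nuclei for the same share of its UMIs. The ratios of *Cdh3* (1.80), *Slc6a5* (1.65), *Gad1* (1.47) and *Slc32a1* (1.30), which stood at far lower levels, were above that of the median gene.

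The cluster made up 1.66% (exact 95% interval 1.19 to 2.25), 1.72% (1.26 to 2.28), 1.08% (0.774 to 1.47) and 2.09% (1.65 to 2.61) of the neuronal nuclei of the 4 libraries, intervals that cover counting error only. The control libraries were nearly equal, and the lowest and the highest share came from AgRP-Gq;POMC-Gi mice. Means were 1.69 ± 0.041% for control and 1.59 ± 0.712% for AgRP-Gq;POMC-Gi (n = 2 each), and the difference of −0.103 percentage points had an exact two-sided permutation p = 1, where 2 libraries against 2 cannot give less than 0.333. It was −0.607 when AgRP-Gq;POMC-Gi replicate 2 was left out and 0.401 when replicate 1 of that group was. Of all kept nuclei, neurons were 25.4% and 27.2% for control and 38.0% and 36.5% for AgRP-Gq;POMC-Gi. As a share of all kept nuclei the difference of cluster 31 had the opposite sign, with means of 0.445 ± 0.033% for control and 0.587 ± 0.249% for AgRP-Gq;POMC-Gi (difference 0.143 percentage points, exact two-sided permutation p = 1). That sign rested on AgRP-Gq;POMC-Gi replicate 2, without which the difference was −0.033.

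To ask whether the cluster responded to the chemogenetic intervention, UMIs were summed over its nuclei in each library. The groups were then compared with edgeR's quasi-likelihood test and Benjamini-Hochberg adjustment over 12260 genes. *Htr2c* and *Luzp2* were lower in AgRP-Gq;POMC-Gi mice and no gene was higher at an adjusted p under 0.05 (2 genes, 0.0163%). With no filter on genes 4 were called higher and 16 lower. At an unadjusted p under 0.05 there were 602 genes (4.91%). The median log2 difference over all genes was 0.01, and DESeq2 called 0 genes, with adjusted p = 0.177 for *Htr2c* and 0.285 for *Luzp2*. Leaving out the first control library gave 22 calls and leaving out the second gave 16. Leaving out replicate 1 of the AgRP-Gq;POMC-Gi mice gave 20 and leaving out their replicate 2 gave 12. *Htr2c* and *Luzp2* were among the calls each time.

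*Htr2c* encodes the serotonin 2C receptor, which is known for restraining food intake, a role that these data do not examine. Its level was 203, 202, 69.4 and 78.2 CPM in cluster 31 (112, 107, 30 and 74 UMIs). Both control libraries stood well above the other 2, with group means of 203 ± 0.364 and 73.8 ± 6.26 CPM and a log2 difference of −1.40 (SE 0.20, edgeR adjusted p = 0.00085). Each SD rests on 2 libraries with 30 to 112 UMIs, so it is a poor measure of spread. In the other neurons it was at 718, 789, 809 and 671 CPM, a difference that did not pass (log2 difference 0.04, edgeR adjusted p = 0.957). The share of nuclei with an *Htr2c* UMI overlapped between the groups (29.3%, 40.4%, 32.5% and 28.9%). The 2 low libraries were the one with 469 CPM of *Xist* and the one with 0. Of 323 UMIs, 51.1% came from 10 nuclei, 8 of them from control libraries, and the highest nucleus of each library held 29, 16, 6 and 15. All 10 of these nuclei had a *Gad* UMI and a *Nkain3* UMI, which 93.6% and 96.1% of all nuclei of the cluster had. Of the 10, 9 had a *Slc6a5* UMI, 6 a *Cdh3* UMI and 1 a *Slc17a6* UMI. They were 4.90% of the cluster's nuclei and held 6.76% of its UMIs, with a median of 14604.5 UMIs, against 10885 in the cluster. With the top nucleus of each library left out, *Htr2c* kept its direction and passed (log2 difference −1.45, adjusted p = 0.0053), and in a mixed model of UMIs per nucleus (negative binomial, library as the random term) the difference was −1.19 (SE 0.49, with no p given since nuclei are not replicates of a condition). *Htr2c* (ENSMUSG00000041380) lies on the X chromosome at 146962513 to 147197277.

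*Luzp2* encodes a leucine zipper protein and spans 54835498 to 55268885 on chromosome 7 (ENSMUSG00000063297). Its level was 319, 282, 125 and 147 CPM (176, 149, 54 and 139 UMIs), again with both control libraries above the remaining 2. Group means were 300.2 ± 26.2 and 136 ± 15.6 CPM, and the log2 difference was −1.08 (SE 0.18, edgeR adjusted p = 0.0081). A single nucleus, the one that was also highest for *Htr2c*, held 99 of the 176 UMIs in control replicate 1, and another held 48 of 149 in control replicate 2, against at most 9 and 14 in replicates 1 and 2 of the AgRP-Gq;POMC-Gi group. Without the top nucleus of each library the call was lost (log2 difference −0.47, adjusted p = 0.999), and the mixed model gave −0.49 (SE 0.44). The 10 nuclei highest for *Htr2c* held 24.1% of the *Luzp2* UMIs, but only 1 of them was among the 10 highest for *Luzp2*. That was the nucleus with 99 UMIs. The call for *Luzp2* depended on the top nucleus of each library, while the shares of nuclei with a UMI were 46.3%, 42.6%, 47.5% and 38.2%.

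**Figure D4:**
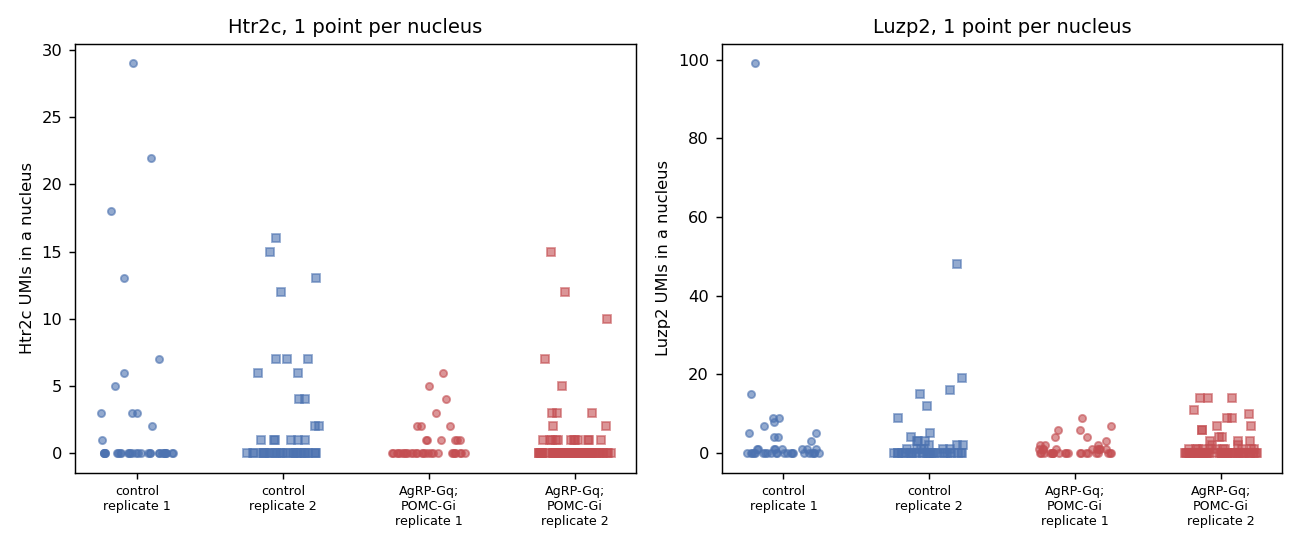
UMIs of *Htr2c* (left) and *Luzp2* (right) in every nucleus of cluster 31, by library, each point 1 nucleus, moved sideways at random so that points do not hide each other. For *Luzp2* 1 nucleus of control replicate 1 holds 99 UMIs, and for *Htr2c* the highest nuclei of the 4 libraries hold 29, 16, 6 and 15.

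The next genes did not pass with all 4 libraries. On the lower side the log2 differences were −1.07 for the noncoding *Rmst* (adjusted p = 0.103), −1.54 for *Erbb4*, a neuregulin receptor (0.136), and −1.88 for *Corin*, a natriuretic peptide convertase (0.155), by the same edgeR fit. On the higher side *Grm8*, a metabotropic glutamate receptor, stood at 612, 569, 909 and 886 CPM (log2 difference 0.65, edgeR adjusted p = 0.165). *Mcc* (0.64, adjusted p = 0.380), *4930505G20Rik* (1.17, 0.586), *Lypd6* with 2, 0, 6 and 17 UMIs (3.06, 0.595) and *B230219D22Rik* (0.95, 0.628) followed. Several of these calls depended on which libraries were included. *Rmst* (−1.51 to −0.62 with 1 library left out), *Erbb4* (−2.33 to −0.72) and *Corin* (−2.47 to −1.15) passed when replicate 1 of either group was left out and not when replicate 2 was. *4930505G20Rik* (0.70 to 1.69) passed when replicate 2 of either group was left out, *Mcc* (0.47 to 0.80) when AgRP-Gq;POMC-Gi replicate 2 was, and *Lypd6* (2.16 to 6.42) in no case. The groups did not overlap for 2303 of the 12260 genes on the lower side (18.8%) and for 1796 on the higher side (14.6%), so separation of 2 libraries from 2 was common.

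**Figure D5:**
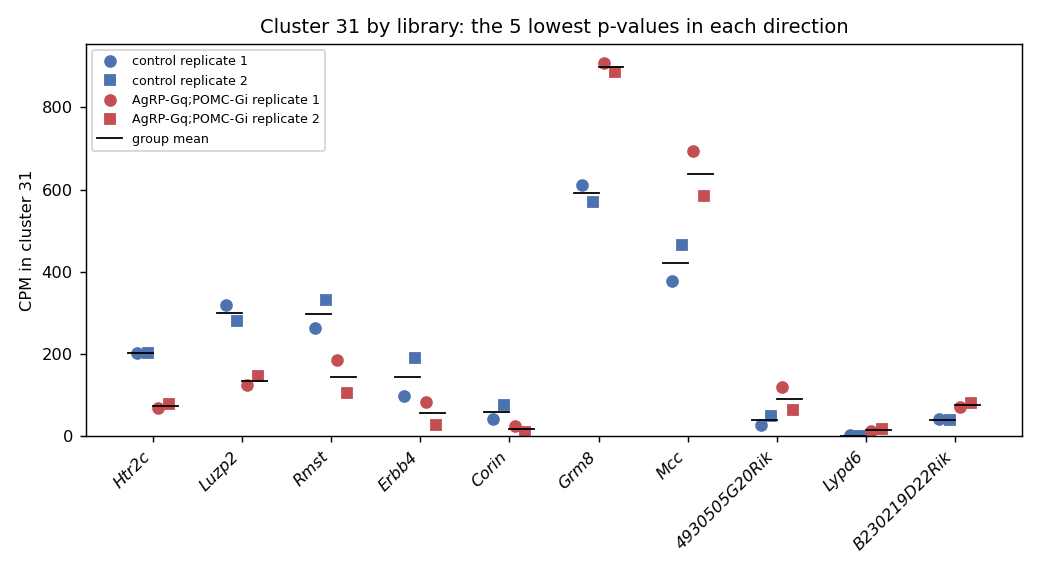
Level (CPM) in cluster 31 by library for the 5 genes with the lowest p in each direction, blue for control and red for AgRP-Gq;POMC-Gi, circles for replicate 1 and squares for replicate 2, black lines for group means. *Htr2c* and *Luzp2*, which passed, stand at about 203 and 300.2 CPM in control and at 73.8 and 136 CPM in AgRP-Gq;POMC-Gi mice.

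The immediate early genes that the study used as a sign of recent neuronal activity gave no call. Of 10 such genes 6 were seen in enough nuclei to test and 0 passed. *Fos*, the standard marker, had 2, 2, 2 and 5 UMIs in the 4 libraries, *Fosl2* had 1 in each, *Gem* had 0, 1, 0 and 0, and *Nr4a3* had none. These 4 genes were not tested. *Homer1*, a scaffold of glutamate receptors and the only one seen in over 25% of the nuclei, stood at 76.1, 73.7, 64.7 and 63.4 CPM (log2 difference −0.19, edgeR adjusted p = 0.994). The largest difference was that of *1700016P03Rik*, the host transcript of 2 activity-linked microRNAs, at 9.05, 20.8, 2.31 and 8.46 CPM (log2 difference −1.16, edgeR adjusted p = 0.994), where groups did not overlap, and the value lay between −2.49 and −0.46 with 1 library left out. Of 9 further activity genes tested, 11 genes induced by glucocorticoids and 12 clock genes, none passed either.

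The genes that name or mark the cluster gave no call between the groups. *Cdh3* had a log2 difference of 0.83 (SE 0.27), with both control libraries the lowest, which did not pass (edgeR adjusted p = 0.905). *Nkain3* (0.14), *Gad1* (0.31), *Gad2* (0.03), *Slc32a1* (−0.19) and *Slc6a5* (−0.01) were closer to 0. Of the 20 genes with the highest ratios to other neurons 17 were nominally higher in AgRP-Gq;POMC-Gi mice and 0 passed (lowest adjusted p = 0.586, median log2 difference 0.26). Of the 10 with the lowest ratios 4 could be tested and 0 passed. The Hox genes had 12 of 14 positive log2 differences (median 0.36) with none past the threshold. Their summed level was 308, 337, 319 and 414 CPM in cluster 31 and 238, 230, 214 and 340 CPM in the other neurons, so in both only AgRP-Gq;POMC-Gi replicate 2, the library without *Xist*, stood above both controls. The 5 oligodendrocyte genes were all negative (median −0.62) with none past it, beside 6232 of 12260 positive over all genes. The part of the oligodendrocyte markers in other differences was not tested.

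Whether the groups differed in cluster 31 in another way than in the other neurons was tested directly, with the library as a block and an interaction term. The difference between the changes passed for 17 of 12260 genes (0.139%, with 618 or 5.04% at an unadjusted p under 0.05), in all 17 with the change in cluster 31 the more negative. Of these 17, 2 (*Htr2c* and *Luzp2*) also passed within the cluster. The fit estimates a single spread per gene from the sums of both populations, so its SE does not measure the spread of cluster 31 alone. For *Erbb4* the SE of the difference was 0.27, against 0.32 for the change within the cluster. In the other neurons alone 0 of 12102 genes passed (0%, 667 or 5.51% unadjusted, and 12 by DESeq2), a count that ranged from 5 to 2102 with 1 library left out and was highest without AgRP-Gq;POMC-Gi replicate 2. *Erbb4* stood at 97.8, 191, 83.2 and 28.5 CPM in cluster 31, with control replicate 2 the highest and AgRP-Gq;POMC-Gi replicate 2 the lowest, and at 827, 858, 974 and 914 CPM in the other neurons, a difference between the log2 changes of −1.75 (SE 0.27, edgeR adjusted p = 3.08e-05). That value lay between −2.44 and −1.01 with 1 library left out and did not pass without control replicate 2 or without AgRP-Gq;POMC-Gi replicate 2, and 7 nuclei held at least 50% of the *Erbb4* UMIs of the cluster. *Rmst* stood at 264, 331, 185 and 105 CPM in the cluster and between 509 and 542 CPM in the other neurons. All 17 genes had a ratio to the other neurons under 1, as did 45.6% of all genes tested, and 12 of the 17 met the rule for lower. The median ratio of the 17 was 0.419. With AgRP-Gq;POMC-Gi replicate 2 left out, 5 genes passed the test of the difference.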

How the data were processed

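The data were UMI counts from 4 single-nucleus libraries, which the authors obtained with the 10x Genomics Chromium 3′ kit and Cell Ranger 7.0.0 on GRCm38 and deposited before filtering. Their deposited table gives for each nucleus the total counts, the mitochondrial percent, whether it was kept (by depth and mitochondrial percent in Seurat 4.3.0, and by doublet detection with scDblFinder) and its cluster. UMI and gene totals of all 44303 barcodes equalled those of this table. The authors' score columns for immediate early genes were not used. The members and gene lists were chosen with earlier results of these data known, the lists from general knowledge.

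UMIs were summed per library over the nuclei of cluster 31 and over the other neurons. Sums of genes seen in at least 5% of the cluster's nuclei were compared between groups with edgeR 4.0.16 (quasi-likelihood test, TMM factors, R 4.3.3), also in a fit of both populations with the library as a block. Alternatives were no TMM factors, DESeq2 1.42.0, no filter, filterByExpr, the replicate number as a block, each library left out, the top nucleus of each gene left out and, for named genes, a mixed model of UMIs per nucleus with the library as the random term (glmmTMB 1.1.9). Both edgeR fits as reported were tested on simulated data, and the alternatives were not. The simulation drew library sums with the same spread for every gene. It did not model UMIs gathered in few nuclei, so it does not bear on calls that rest on few nuclei. Genes were named by rule: members of the lists seen in at least 25% of the nuclei, the 20 highest and 10 lowest ratios to the other neurons, up to 12 calls or the 5 lowest p per direction, the 10 immediate early genes, the 10 most variable genes and 5 genes per direction against each of the 3 most similar clusters. A few list members outside these were chosen after their values were seen, and some genes that these rules name are not reported here. Positions are those of GENCODE M21. Tables were made in Python 3.11.15 (pandas 2.3.3, numpy 2.4.6, scipy 1.17.1) and figures drawn in matplotlib 3.10.9.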

Additional observations from a re-analysis of the deposited data

Results flagged for a closer look

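The difference between the groups was itself different in cluster 31 and in the other neurons for 17 genes (edgeR interaction term, 12260 genes tested). That fit takes a single spread per gene over both populations. For the 12 with the lowest p, the log2 change in cluster 31 minus that in the other neurons was −1.24 for *Luzp2*, −1.75 for *Erbb4*, −1.39 for *Htr2c*, −1.16 for *Rmst*, −0.95 for *Cntn5*, −1.04 for *Ghr*, −1.36 for *Rarb*, −0.97 for *Kcnip4*, −0.87 for *Brinp3*, −1.39 for *Tmem132d*, −0.999 for *Pde1a* and −0.76 for *Il1rapl1*. *Luzp2* and *Htr2c* passed this test with each of the 4 libraries left out in turn, and the other 10 lost the call without at least 1 library. Of the 204 nuclei, at least 50% of a gene's UMIs came from 7 for *Erbb4*, 8 for *Kcnip4*, 9 for *Tmem132d*, 10 each for *Htr2c* and *Luzp2*, 13 for *Pde1a*, 14 for *Cntn5*, 15 for *Rmst*, 19 for *Ghr*, 21 for *Il1rapl1*, 24 for *Rarb* and 25 for *Brinp3*, beside 24 for *Cdh3*. The 10 nuclei highest for *Htr2c* held between 10.3% (*Rarb*) and 27.1% (*Kcnip4*) of the UMIs of the other 11 genes. Their share of all UMIs of the cluster was 6.76%. Few were also among a gene's own 10 highest nuclei, from 1 for *Luzp2*, *Cntn5*, *Ghr*, *Brinp3* and *Tmem132d* to 4 for *Pde1a*. The number was also 1 for *Gad1*, *Cdh3* and *Nkain3*. For *Kcnip4* the interaction term was −0.29 without control replicate 2, the library with 1703 CPM in the cluster against 661, 534 and 595 CPM in the others.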

How the results depend on the processing

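*Htr2c* and *Luzp2* were among the genes called in cluster 31 under every alternative fitted across all genes except DESeq2, which called 0 genes, and the removal of the top nucleus, after which only *Htr2c* was called (1 gene). The mixed model, fitted to named genes alone with the library as the random term, gave log2 differences of −1.19 for *Htr2c* and −0.49 for *Luzp2*. Other settings added genes: 20 passed with no filter and, with 1 library left out, between 12 (without AgRP-Gq;POMC-Gi replicate 2) and 22 (without control replicate 1), with 16 when control replicate 2 was left out and 20 when AgRP-Gq;POMC-Gi replicate 1 was, where the lone library was assumed to vary like the other group. In the other neurons the count moved from 0 to 12 with DESeq2, to 1 with no filter, to 1 with filterByExpr and, with 1 library left out, to between 5 and 2102, the highest without AgRP-Gq;POMC-Gi replicate 2. The interaction count ranged from 5 to 23 with 1 library left out, lowest without AgRP-Gq;POMC-Gi replicate 2. With a ratio of at least 4 the cluster had 78 genes higher and 324 lower than the other neurons. The cause of these shifts was not tested.

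With the replicate number as a block, 25 genes passed in cluster 31 (4 higher and 21 lower) and 29 in the other neurons. No label ties same-numbered libraries to shared mice or days. Their deviations correlated at r = 0.0093 in cluster 31 and 0.183 in the other neurons, and *Ttr* differed by number in both, so a shared source was not settled and the pairing was not used.

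Some immediate early genes changed sign between settings. The log2 difference of *Nr4a1* lay between −1.52 and 0.19 with 1 library left out, that of *Jun* between −1.47 and 0.22 and that of *Btg1* between −0.51 and 0.31. That of *Junb* was −0.16 with DESeq2, −0.024 with no TMM factors, −0.24 with the replicate block and between −1.33 and 0.82 with 1 library left out. None of these passed. Of the remaining values for single genes, 230 kept direction and side of the threshold or, for levels and shares of nuclei, stayed within their SD or interval. Another 27 moved to under the threshold and 25 to over it, where the mixed model was counted by its unadjusted p. On thinning 34 shares of nuclei fell. The mixed model did not converge for *Nr4a3* and *Gem*. Depth limits the rare genes most.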
